A study of Mus musculus with 8 samples.

Results

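The endoplasmic reticulum (ER) folds secreted and membrane proteins and passes them on to the Golgi, and the genes described here are 38 that carry out this work or report on its load. They are folding chaperones and their partners, protein disulfide isomerases, degradation factors, sensors and transcription factors of the unfolded protein response, parts of the translocation channel and 4 subunits of the COPII coat. They were chosen by gene symbol from a list of names. All 38 were among the 13387 genes of the count table and all 38 passed the filter on low counts that 11722 genes passed. Each had at least 1 count in every library.

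The libraries were bulk RNA-Seq of C57BL/6 wild-type murine cells. Megakaryocytes (MKs), the marrow cells that release platelets, were enriched from bone marrow with beads against CD41 and kept for 18 hours in medium with thrombopoietin. They were either cultured alone (MK_only, 4 libraries) or cocultured with mesenchymal stem cells (MSCs) sorted from marrow as CD45-, Ter119-, CD31-, CD51+ and CD140a+ cells (MK_MSC, 4 libraries). Several wells were pooled into each library, and the study describes 4 mice per group for its sequencing. The labels do not tie a library to an animal, and p-values measure the spread between these libraries. The age of the animals is not given in the labels. The study's methods state an age range for its mice and the use of both sexes, without tying either to a library. The labels give the cells as MKs that were separated from platelets, whereas the study's methods describe sequencing of platelets, and the labels were followed.

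Libraries held between 4939874 and 12523616 counts, and 3 counts corresponded to between 0.28 and 0.66 CPM (counts of a gene per library size after TMM scaling, on a common scale). Replicate 3 of the cocultures stood apart from the others. It had counts for 10735 genes, against 13104 to 13193 in the other cocultures and 12406 to 12622 in MKs cultured alone, and it was the lowest coculture for 21 of the 38 genes and the highest for 9. Results on the 38 genes are therefore also given without this library where that changed whether a gene passed the limits used. Markers of several other cell types differed between the groups. MK and platelet markers, 15 of 15 in the table, summed to between 1911 and 2250.5 CPM in MKs cultured alone and between 1760.5 and 2361 CPM in cocultures, and 0 of 15 were called with all libraries, against 1 higher and 2 lower without replicate 3 of the cocultures. MSC markers, 11 of 13 in the table, summed to between 14.9 and 22.9 CPM alone and between 1660 and 4880 CPM in cocultures. Macrophage markers, 11 of 11, summed to between 153 and 229 CPM against 923 to 1394 CPM. Neutrophil markers, 10 of 10, summed to between 82017 and 82976 CPM against 4348 to 10184 CPM, and promyelocyte markers, 5 of 5, to between 3339 and 5732 CPM against 74.1 to 299 CPM. B cell markers, 8 of 8, summed to between 861 and 910 CPM against 61.7 to 226 CPM. Plasma cell markers, 5 of 7 in the table, summed to between 70.1 and 98.9 CPM against 116 to 307 CPM. Of these 5, only 1 was called higher, 3 had a log2 fold change below 0 and the median was -0.13. Without replicate 3 of the cocultures, 1 was called higher and 2 lower. Erythroid markers, 7 of 8, summed to between 33.5 and 54.4 CPM against 16.02 to 93.7 CPM. No listed marker in the table was at 0 in every library of a group, but *Pdgfra*, *Lepr*, *Cxcl12*, *Kitl* and *Col3a1* were each at 0 in at least 1 library of MKs cultured alone, and the platelet receptor gene *Gp6* was at 0 in replicate 3 of the cocultures. The ER genes are used by all of these cells, and the part of the marker differences in the results on them was not tested. In bulk RNA, fewer cells of a type and less RNA per cell cannot be told apart.

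Proteins enter the ER through the SEC61 channel and fold there with the help of the HSP70-type chaperone BiP, the HSP90-type chaperone GRP94, lectin chaperones that bind sugar chains, and protein disulfide isomerases that form disulfide bonds. When unfolded proteins accumulate, the sensors IRE1, PERK and ATF6 respond. IRE1 splices the mRNA of XBP1, ATF6 is cut to release a transcription factor, and PERK slows translation while favoring that of ATF4, which in turn induces CHOP. XBP1 and ATF6 act at promoter elements of chaperone and degradation genes, and folded cargo leaves the ER in vesicles coated with COPII. MKs load much secretory cargo into their granules, and MSCs secrete collagens and other matrix proteins.

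Of the 38 genes, 5 (13.2%) rose in cocultures and 2 (5.26%) fell, by edgeR's quasi-likelihood test, where a call needed a change of 2-fold or more and a p of at most 0.05 after Benjamini-Hochberg adjustment over all genes tested. The same rule called 13.2% of all 11722 genes tested as higher and 7.31% as lower, so the shares of the ER genes were near those of all genes. The genes that rose were *Creld2* and the 4 COPII genes *Sec23a*, *Sec24d*, *Sec13* and *Sec31a*, and those that fell were *Serp1* and *Herpud1*. The median log2 fold change of the 38 genes was 0.33, against 0.03 over all genes tested, with 27 above 0 and 11 below. Without replicate 3 of the cocultures, 5 genes again rose, with *Ppp1r15a* in place of *Creld2*, and 3 fell, with *Eif2ak3* added. The background without this library was 20.6% of 12267 genes higher and 15.4% lower, and the median of the ER genes was 0.48. The groups did not overlap for 11 of the 38 genes with all cocultures higher (28.9%) and for 6 with all cocultures lower (15.8%), against 19.3% and 21.1% of all genes tested. Without replicate 3 these were 15 and 6 genes, against 28.1% and 26.3% of all genes. The adjusted p alone was at most 0.05 for 8 genes above 0 and 3 below, against 14.3% and 8.75% of all genes. Without replicate 3 these were 17 and 5 genes, and the share of all genes by this rule was then not counted.

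Other settings called similar numbers. DESeq2 called 6 genes higher and 3 lower (background 17.2% and 10% of 13387 genes), with *Ddit3* and *Dnajb9* added. RLE factors called 5 and 2 (12.7% and 7.52%), library size alone 5 and 1 (13.7% and 6.36%), and scaling to the MK and platelet markers 6 and 1 (14.3% and 6.13%). With the replicate number as a block the counts were 5 and 2 (9.35% and 4.89%).

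**Figure D1:**
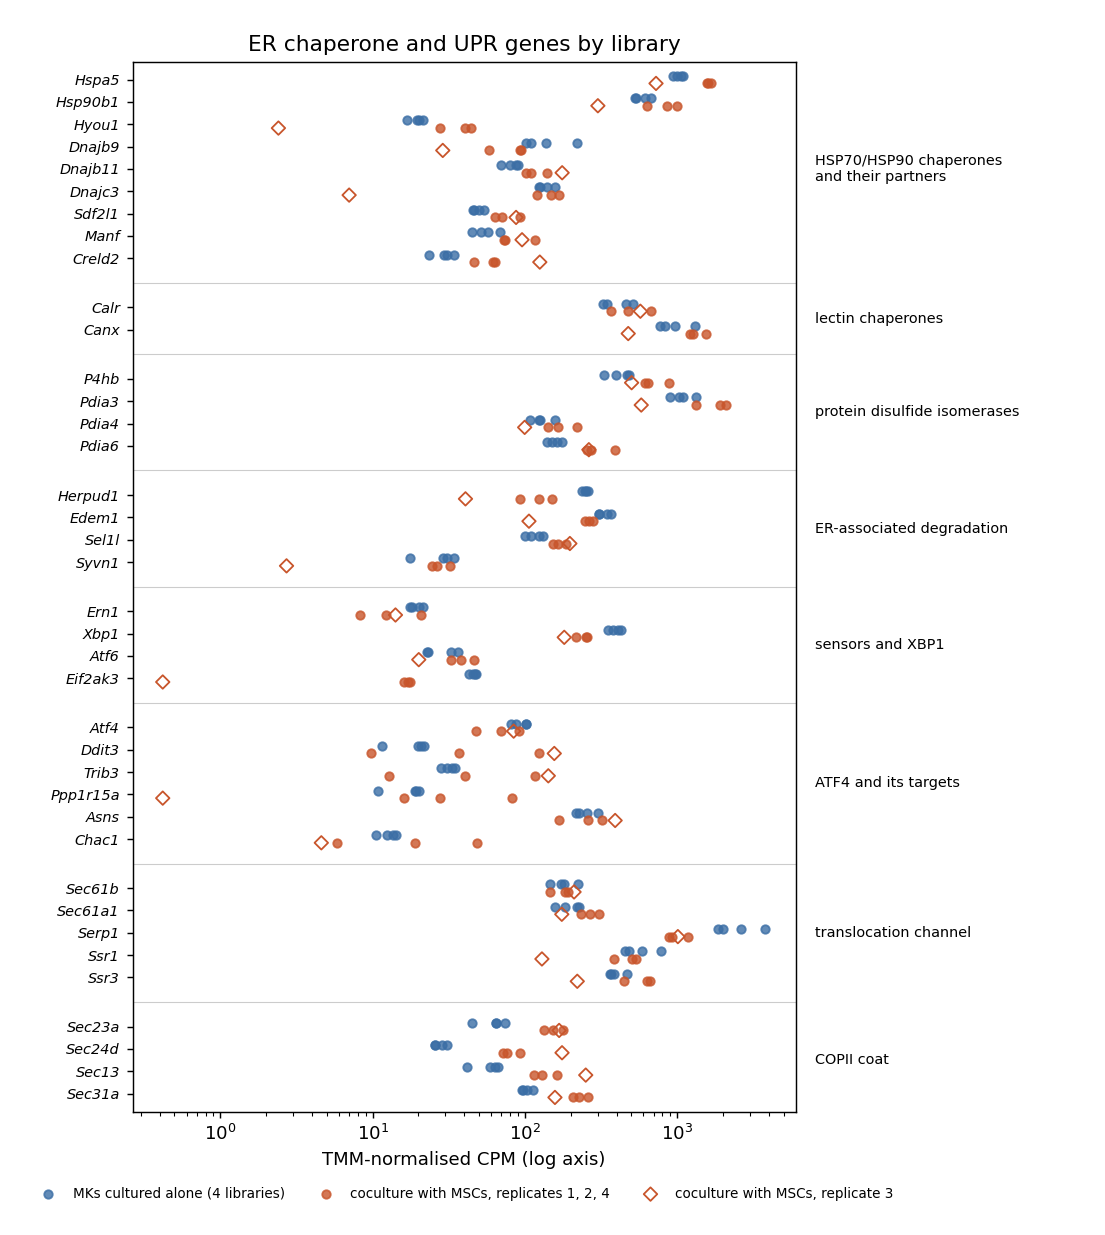
CPM (x axis, log scale) of the 38 ER genes (rows, grouped by role) in each library, with filled points for MKs cultured alone and for replicates 1, 2 and 4 of the cocultures and open diamonds for replicate 3. In the COPII rows every coculture lies to the right of MKs cultured alone, *Serp1* lies to the left, and the diamonds of *Hyou1*, *Dnajc3*, *Syvn1*, *Eif2ak3* and *Ppp1r15a* stand far to the left of all other points in their rows.

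**Figure D2:**
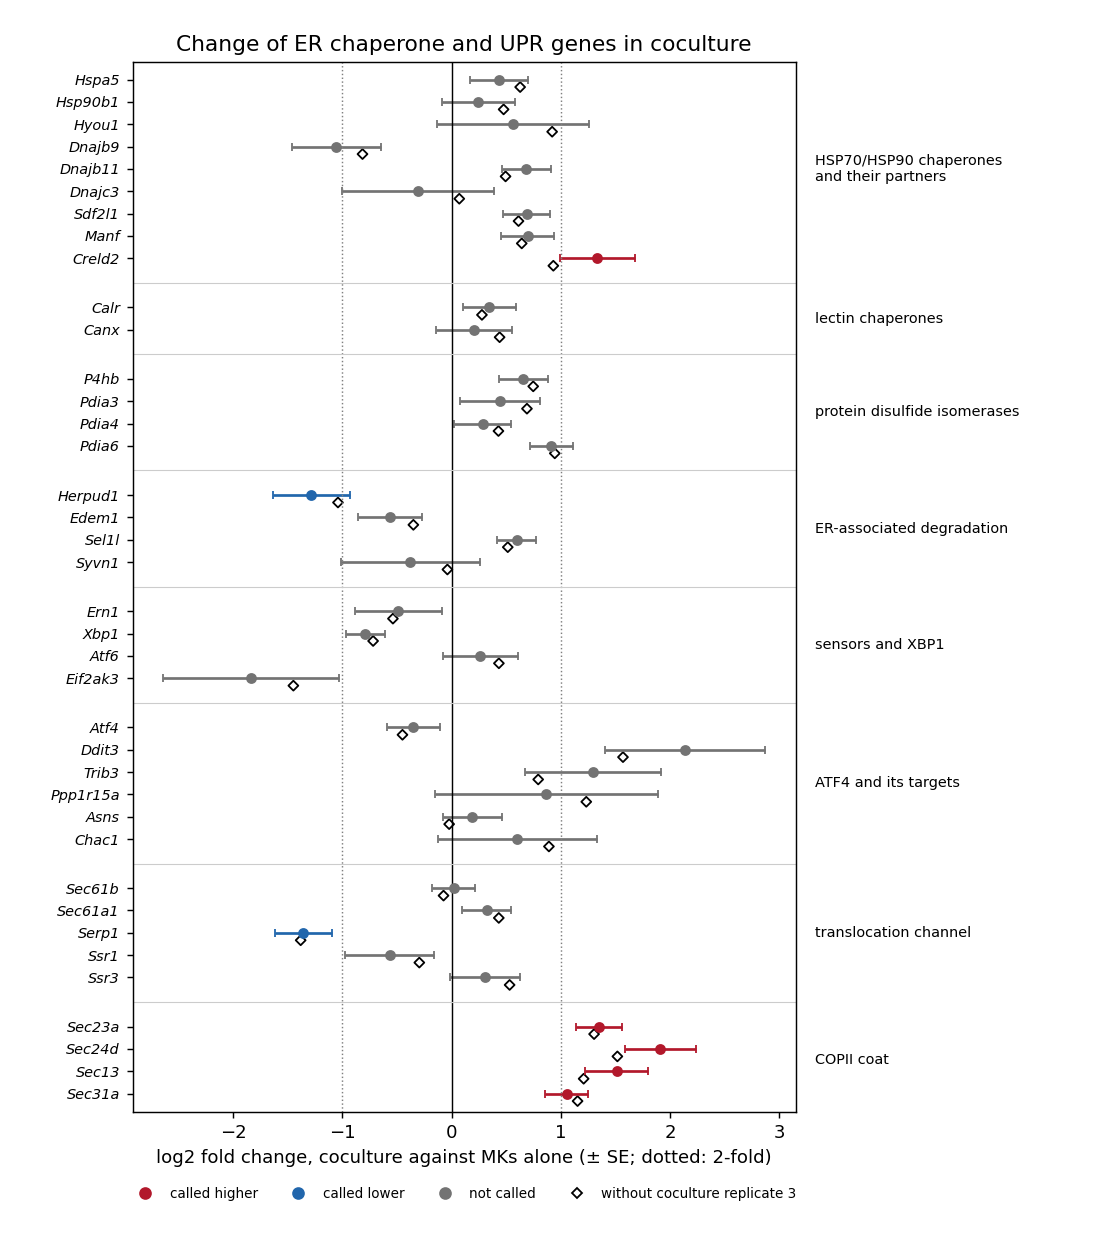
Log2 fold change of cocultures against MKs cultured alone for each of the 38 genes (points, colored where called), with bars for the SE of the edgeR fit, dotted lines at 2-fold and diamonds for the value without replicate 3 of the cocultures. The COPII genes lie between 1.05 and 1.91, whereas the genes of the sensor group lie between -1.84 and 0.26.

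The COPII coat was the role in which every listed gene rose, 4 of 4, with a median log2 fold change of 1.43. The inner coat is built of SEC23 and SEC24 subunits, which bind cargo and the GTPase SAR1, and the outer cage of SEC13 and SEC31. *Sec24d*, on chromosome 3 at 123264801 to 123365641 of GRCm38, encodes a cargo-binding SEC24 subunit and had the largest change of the 4. Its values were 28.7, 25.8, 25.7 and 30.8 CPM in replicates 1 to 4 of MKs cultured alone and 76.8, 92.9, 175 and 71.3 CPM in cocultures. The lowest coculture was thus above the highest library of MKs cultured alone. The group means were 27.7 ± 2.44 and 104 ± 48.4 CPM (SD, n = 4 each), a 3.75-fold difference with a log2 fold change of 1.91 ± 0.32 (SE) and an adjusted p of 0.0034. *Sec23a*, its partner in the inner coat, on chromosome 12 at 58958384 to 59012017, had 73.7, 64.9, 44.7 and 64.9 CPM alone and 177, 154, 168 and 134 CPM in cocultures. It rose 2.55-fold (log2 1.35 ± 0.21, adjusted p = 0.0023), with an SD of 18.8 CPM among cocultures. Its exons share 431 bases with those of *Gm17529*, which is 8.90% of their length.

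The outer-cage genes rose as well. *Sec13*, on chromosome 6 at 113728052 to 113740681, had 41.7, 66.6, 63.5 and 58.7 CPM alone and 115, 162, 251 and 130 CPM in cocultures. Its change was 2.85-fold (log2 1.51 ± 0.29, adjusted p = 0.0063). SEC13 is also part of the nuclear pore, so its gene does not report on the coat alone. *Sec31a*, on chromosome 5 at 100361649 to 100416273, had 104, 112, 95.7 and 96.5 CPM alone and 206, 259, 157 and 226 CPM in cocultures, and it rose 2.08-fold (log2 1.05 ± 0.20, adjusted p = 0.0052). It lies closest to the 2-fold limit, and without replicate 2 of the cocultures its log2 fold change of 0.98 was just under it. Without replicate 3 the 4 genes were all called, with log2 fold changes between 1.15 and 1.52. Summed over the 4 genes, COPII expression was 248, 269.5, 230 and 251 CPM in MKs cultured alone and 574, 668, 751 and 560 CPM in cocultures. The other coat genes, chosen for mention after their values were seen, did not all share this. *Sar1a*, which encodes the GTPase that starts coat assembly, was called higher (log2 1.05) but had 0.88 without replicate 3 of the cocultures, under the 2-fold limit. The paralogs *Sec23b* (log2 -0.15), *Sec24a* (0.85), *Sec24b* (-0.06) and *Sec24c* (0.25) were not called. *Sec23b* had 34 counts in replicate 3 of the cocultures, against 1098, 860 and 528 in replicates 1, 2 and 4, so its value depends on that library.

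**Figure D3:**
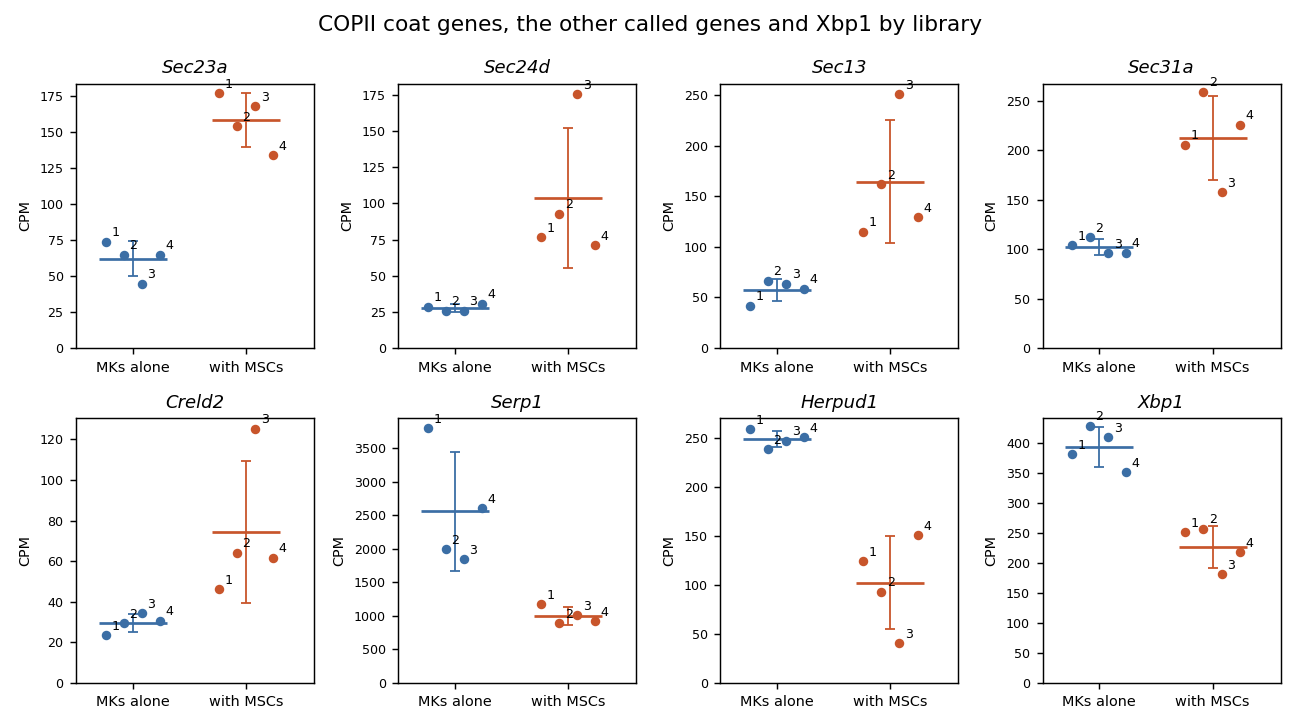
CPM per library (points, numbered by replicate) for the 7 genes called between the groups and *Xbp1*, with horizontal lines for the group means and bars for the SD (n = 4 each). The groups do not overlap in any panel, and replicate 3 of the cocultures gives the highest coculture value for *Sec24d*, *Sec13* and *Creld2* and the lowest for *Sec31a*, *Herpud1* and *Xbp1*.

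The promoter of *Sec24d* holds the letters TGACGTGG, which are those of the UPRE bound by XBP1 and ATF6. These letters were searched on both strands of RefSeq windows from 250 bases before to 50 after each gene's start (GRCm38.p6), which were found for 34 of the ER genes, and stood in 0.676% of 32851 windows. The sequence is shown with the matched letters in capitals because *Sec24d* had the largest log2 fold change of the called ER genes. It holds the 250 bases before the start used for the RefSeq window, on chr3:123267246-123267495 of the plus strand. The match begins 26 bases before that start. This window lies inside the span of the gene given above, which begins at 123264801, so it does not precede the gene's outermost start.
*Sec24d*: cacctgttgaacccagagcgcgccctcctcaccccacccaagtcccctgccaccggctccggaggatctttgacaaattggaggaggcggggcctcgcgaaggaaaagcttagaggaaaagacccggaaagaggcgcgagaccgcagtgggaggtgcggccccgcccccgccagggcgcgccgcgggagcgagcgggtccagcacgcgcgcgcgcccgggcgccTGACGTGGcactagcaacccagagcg
Of 90 genes tested whose windows held these letters, 16 were called higher and 4 lower, with a median log2 fold change of 0.06. Over all genes tested, 13.2% were called higher and 7.31% lower, with a median of 0.03. A match of letters is a description of the window and not evidence of a bound site.

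In the translocation channel, 1 of 5 genes was called and it fell. *Serp1*, on chromosome 3 at 58521969 to 58525884, encodes a small membrane protein (RAMP4) that associates with the SEC61 channel and protects newly made proteins during stress. It had 3798, 1992, 1845 and 2606 CPM in MKs cultured alone and 1176, 887, 1010 and 923 CPM in cocultures. The highest coculture was well below the lowest library of MKs cultured alone. The means were 2560 ± 889 and 999 ± 129 CPM (SD, n = 4 each), 2.56-fold lower in cocultures, with a log2 fold change of -1.36 ± 0.26 and an adjusted p of 0.0064. It was called lower in every alternative tried, and each library left out in turn gave log2 values between -1.50 and -1.12. Its exons share 72 bases with those of *Eif2a*, which is 1.56% of their length. Per kilobase of exon, *Serp1* was the highest of the 38 genes in MKs cultured alone, at 555 CPM per kb, and the 5th highest in cocultures, at 217 CPM per kb. The length used was 4611 bases, from all its annotated exons merged, which exceeds the span given above. These values and ranks hold for that length only.

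The other channel genes were not called. *Sec61b*, a channel subunit, had 223, 173, 147 and 180 CPM alone and 184, 191, 210 and 146 CPM in cocultures (log2 0.02 ± 0.20). The pore subunit gene *Sec61a1* had 157, 226, 221 and 184 CPM against 235, 308, 175 and 266 CPM (log2 0.32). For both, the groups overlapped. *Ssr1* (log2 -0.57) and *Ssr3* (0.31), subunits of the translocon-associated TRAP complex, also overlapped between groups, and both had their lowest value in replicate 3 of the cocultures, at 129 and 221 CPM. Without that library *Ssr3* had an adjusted p below 0.05 on the side of the cocultures, short of 2-fold.

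Of the 15 genes that fold proteins, 1 was called. *Creld2*, on chromosome 15 at 88819646 to 88826681, encodes an ER protein induced by unfolded proteins. It had 23.6, 29.4, 34.4 and 30.6 CPM in MKs cultured alone and 46.3, 64.1, 125 and 61.6 CPM in cocultures. Every coculture was higher than every library of MKs cultured alone, and replicate 3 was the highest. It rose 2.52-fold (log2 1.33 ± 0.34, adjusted p = 0.023). Without replicate 3 the log2 fold change was 0.93, with an adjusted p of 0.0008, short of 2-fold. The call was also lost when any 1 of the libraries of MKs cultured alone was left out, with adjusted p values of 0.058 to 0.075.

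BiP, encoded by *Hspa5* on chromosome 2 at 34772090 to 34776529, had 1064, 1097, 997 and 943 CPM alone and 1581, 1670, 726 and 1564 CPM in cocultures. Replicates 1, 2 and 4 of the cocultures were above all libraries of MKs cultured alone, and replicate 3 was below them all. The log2 fold change was 0.43 ± 0.27 with an adjusted p of 0.277, and without replicate 3 it was 0.63 with an adjusted p of 0.0040, which is short of 2-fold. *Hyou1*, an HSP70-type chaperone that exchanges the nucleotide of BiP, had 19.6, 20.1, 21.3 and 16.9 CPM alone and 27.7, 44.5, 2.41 and 40.4 CPM in cocultures, again with replicates 1, 2 and 4 above and replicate 3 below all libraries of MKs cultured alone. *Pdia3*, a disulfide isomerase that works with the lectin chaperones, had 1323, 1090, 903 and 1034 CPM alone and 1905, 2095, 581 and 1332 CPM in cocultures. With all libraries *Hyou1* and *Pdia3* had log2 fold changes of 0.56 and 0.44 (adjusted p = 0.605 and 0.422). Without replicate 3 these were 0.92 and 0.69 (adjusted p = 0.0017 and 0.0079), short of 2-fold. For 9 of the 15 folding genes, each of replicates 1, 2 and 4 of the cocultures was higher than every library of MKs cultured alone. The same held for 28.1% of all genes tested.

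Several other folding genes differed by less than 2-fold without overlap between the groups. *Pdia6*, a disulfide isomerase, had 139, 175, 163 and 151 CPM alone and 273, 389, 263 and 255 CPM in cocultures (log2 0.91 ± 0.20, adjusted p = 0.010). *Sdf2l1*, which partners with DNAJB11 at BiP, had 45.9, 46.4, 53.7 and 49.8 CPM against 63.8, 93.5, 87.5 and 70.4 CPM (log2 0.69 ± 0.22, adjusted p = 0.048, and up to 0.127 with a library left out). In these 2 genes replicate 3 lay within the range of the other cocultures. *Dnajb11*, a BiP cochaperone, had 69.7 to 90.5 CPM alone and 102 to 176 CPM in cocultures (adjusted p = 0.056). *Manf*, a BiP-binding secreted factor, had 44.8 to 68.4 CPM against 73.4 to 117 CPM (adjusted p = 0.071), and *P4hb*, the classic disulfide isomerase and a subunit of prolyl 4-hydroxylase, 330 to 480 CPM against 502 to 881 CPM (adjusted p = 0.064). Without replicate 3 the adjusted p of *Dnajb11*, *Manf* and *P4hb* was 0.024, 0.015 and 0.0033, each still short of 2-fold. *Hsp90b1*, which encodes GRP94 (log2 0.25), the lectin chaperones *Calr* (0.34) and *Canx* (0.21), and *Pdia4* (0.28) had overlapping groups and adjusted p values between 0.345 and 0.712. Without replicate 3 *Hsp90b1* had an adjusted p of 0.041 (log2 0.48), while *Calr*, *Canx* and *Pdia4* stayed above 0.05. *Dnajc3*, which encodes an inhibitor of the kinase PERK that also serves BiP, had 123 to 158 CPM alone, 119 to 169 CPM in replicates 1, 2 and 4 of the cocultures and 7.01 CPM in replicate 3.

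*Dnajb9* went the other way. It encodes the BiP cochaperone ERdj4, which keeps IRE1 inactive, and had 221, 109, 101 and 137 CPM alone against 92.8, 58.1, 28.9 and 93.8 CPM in cocultures. No coculture reached the lowest library of MKs cultured alone. The log2 fold change was -1.05 ± 0.41 with an adjusted p of 0.097, so it was not called. Without replicate 3 of the cocultures these were -0.82 and 0.013, short of 2-fold.

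The ER stress response element (ERSE), bound by ATF6 with the factor NF-Y, was searched as CCAAT followed by CCACG with 9 free bases between them, on both strands of the same windows. It stood in 0.119% of all windows and in 8 of the 34 windows of the ER genes (23.5%). The ER genes were listed as genes of this response and the windows are genomic sequence, so this share is no result of these libraries. The sites are listed on the strand of the match, with the element's fixed letters in capitals, to show their positions and free bases. Their common spacing was set by the search. All positions are on GRCm38.p6.
*Calr* (chr8:84847075-84847093, 162 bases before the start): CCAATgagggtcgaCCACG
*Canx* (chr11:50325800-50325818, 145 bases before the start): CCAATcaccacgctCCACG
*Creld2* (chr15:88819520-88819538, 126 bases before the start): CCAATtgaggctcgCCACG
*Dnajc3* (chr14:118937827-118937845, 105 bases before the start): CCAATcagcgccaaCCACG
*Hsp90b1* (chr10:86705638-86705656, 212 bases before the start): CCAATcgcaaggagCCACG
*Hsp90b1* (chr10:86705533-86705551, 107 bases before the start): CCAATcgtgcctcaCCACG
*Hspa5* (chr2:34772025-34772043, 65 bases before the start): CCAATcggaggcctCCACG
*Pdia6* (chr12:17266491-17266509, 98 bases before the start): CCAATgaaaggcggCCACG
*Syvn1* (chr19:6046532-6046550, 44 bases before the start): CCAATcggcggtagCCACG
Of the 8 genes, 7 are among the folding genes described above, and *Syvn1* encodes a ubiquitin ligase. The 8 genes had a median log2 fold change of 0.29, with 6 above 0 and 1 called higher, and the other 26 genes with a window had a median of 0.37, with 17 above 0. The *Creld2* promoter is given in full up to its start (250 bases, chr15:88819396-88819645, plus strand) because this gene was the only one of the 8 to be called. Its element is on the opposite strand.
*Creld2*: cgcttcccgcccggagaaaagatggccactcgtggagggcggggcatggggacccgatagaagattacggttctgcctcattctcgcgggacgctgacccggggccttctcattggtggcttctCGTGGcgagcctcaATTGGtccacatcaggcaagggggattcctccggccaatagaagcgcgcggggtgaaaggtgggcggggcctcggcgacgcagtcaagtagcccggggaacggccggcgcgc

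In ER-associated degradation, which returns misfolded proteins to the cytosol, 1 of 4 genes was called and it fell. *Herpud1*, on chromosome 8 at 94386429 to 94395371, encodes a membrane protein that organizes the degradation complex and is an established target of the unfolded protein response. It had 259, 238, 247 and 251 CPM in MKs cultured alone and 124, 93.1, 40.7 and 151 CPM in cocultures. The libraries of MKs cultured alone were close to each other, and every coculture was lower. The means were 249 ± 8.58 and 102 ± 47.3 CPM (SD, n = 4 each), with a log2 fold change of -1.28 ± 0.35 and an adjusted p of 0.030. Without replicate 3 of the cocultures it was still called, at -1.04, but without replicate 2 of the cocultures its adjusted p was 0.079 and without each library of MKs cultured alone it was between 0.065 and 0.070. The call was thus lost when any of these 5 libraries was left out.

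The *Herpud1* promoter, shown for this change, holds 2 elements in the 250 bases before its start (chr8:94386179-94386428, plus strand). The capitals ATTGGgCCACG mark ERSE-II, searched as ATTGG and CCACG around 1 free base and present in 0.0365% of windows, and TTgCATCA marks the reverse strand of the CARE bound by ATF4, searched as TGATGNAA and present in 3.97% of windows.
*Herpud1*: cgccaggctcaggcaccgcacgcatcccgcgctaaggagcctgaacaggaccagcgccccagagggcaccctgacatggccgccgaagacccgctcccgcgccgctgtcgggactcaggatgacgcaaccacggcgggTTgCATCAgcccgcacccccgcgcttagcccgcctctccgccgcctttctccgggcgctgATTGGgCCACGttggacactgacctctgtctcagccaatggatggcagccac
Among the ER genes ERSE-II was also matched in the window of *Dnajb11*, and the CARE in those of *Asns*, *Chac1* and *Trib3*. No matches of different motifs overlapped in the windows of the ER genes.

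The other degradation genes were not called. *Sel1l*, the scaffold of the ligase complex, had 131, 123, 109 and 101 CPM alone and 165, 153, 197 and 185 CPM in cocultures, without overlap (log2 0.60 ± 0.18, adjusted p = 0.039, and up to 0.138 with a library left out). Its ligase *Syvn1* had 17.7 to 34.0 CPM alone, 24.4 to 32.4 CPM in replicates 1, 2 and 4 of the cocultures and 2.72 CPM in replicate 3. *Edem1*, which directs sugar-bearing proteins to degradation, had 306 to 370 CPM alone and 106 to 282 CPM in cocultures, all lower (log2 -0.57, adjusted p = 0.201). Of the 4 genes in this group, *Sel1l* alone had every coculture above the highest library of MKs cultured alone.

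None of the 4 genes for the sensors and XBP1 was called. *Xbp1*, on chromosome 11 at 5520641 to 5525993, encodes the transcription factor activated by IRE1. It had 381, 428, 409 and 351 CPM in MKs cultured alone and 251, 256, 181 and 217 CPM in cocultures. The groups did not overlap, and the log2 fold change was -0.79 ± 0.18 with an adjusted p of 0.013, short of 2-fold. With each library left out in turn, the adjusted p was at most 0.049. Counts per gene do not tell spliced from unspliced *Xbp1*, so the activity of IRE1 was not measured. The genes of the sensors themselves had lower levels than *Xbp1* in both groups. *Ern1*, the gene of IRE1, had 17.6 to 21.5 CPM alone and 8.21 to 20.6 CPM in cocultures, and *Atf6* 22.8 to 36.2 CPM against 20.1 to 46.3 CPM. Both had overlapping groups and adjusted p values of 0.416 and 0.627.

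*Eif2ak3*, the gene of PERK, on chromosome 6 at 70844484 to 70905241, had 47.9, 42.9, 46.8 and 45.7 CPM in MKs cultured alone and 17.7, 17.2, 0.42 and 15.96 CPM in cocultures. Within MKs cultured alone the values were nearly equal, and every coculture was far lower. The log2 fold change was -1.84 ± 0.81 with an adjusted p of 0.137, so the gene was not called. Replicate 3 had 4 counts of this gene, whose exons share 8.05% of their length with those of *Gm43292*. Without this library the log2 fold change was -1.45 and the gene was called lower.

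**Figure D4:**
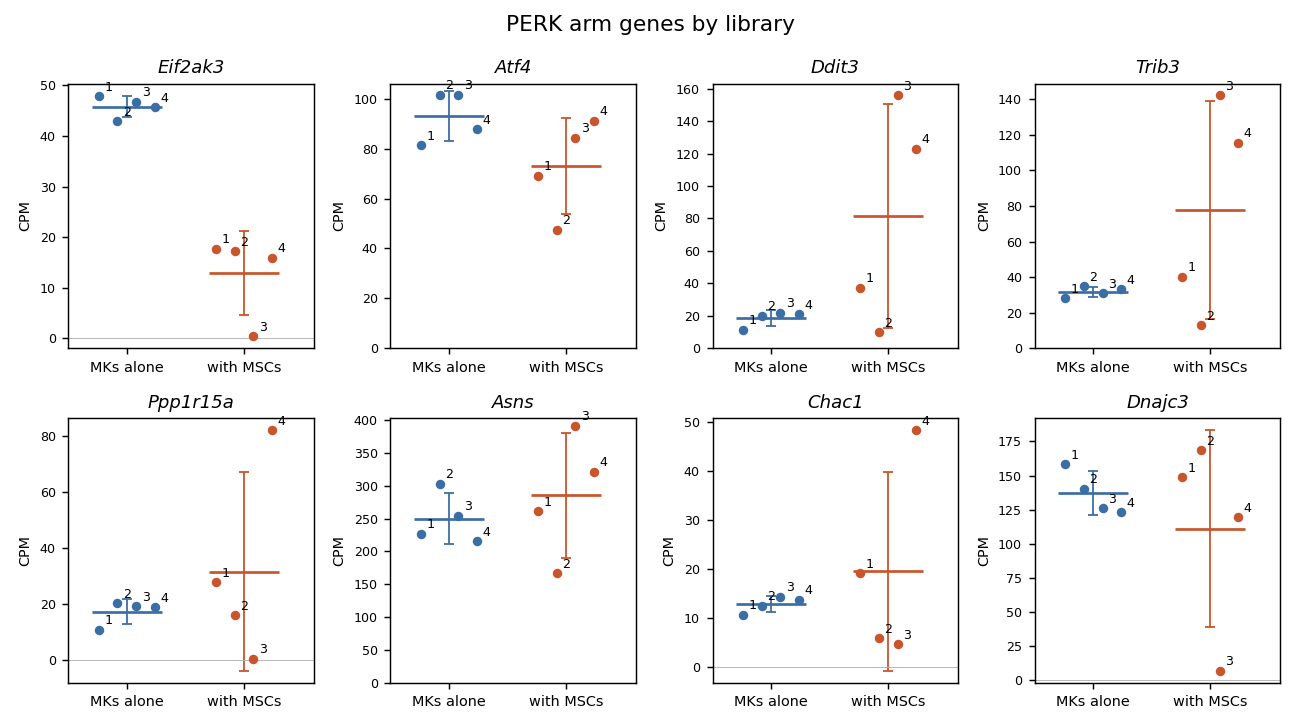
CPM per library (points, numbered by replicate) for *Eif2ak3*, the 6 genes of the ATF4 group and *Dnajc3*, with horizontal lines for the group means and bars for the SD (n = 4 each). *Ddit3* and *Trib3* are highest in replicates 3 and 4 of the cocultures and lowest in replicate 2, while *Eif2ak3* is low in every coculture.

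Of the 6 genes of ATF4 and its targets, 0 were called with all libraries, and the cocultures differed among themselves. *Atf4* had 81.4, 102, 102 and 87.8 CPM alone and 69.2, 47.5, 84.3 and 91.2 CPM in cocultures (log2 -0.35, adjusted p = 0.337). *Ddit3*, which encodes CHOP, on chromosome 10 at 127290793 to 127296291, had 11.5, 19.9, 21.7 and 20.8 CPM alone and 37.2, 9.77, 156 and 123 CPM in cocultures. Replicates 1, 3 and 4 were above all libraries of MKs cultured alone and replicate 2 was below them all. The log2 fold change was 2.14 ± 0.74 with an adjusted p of 0.068. It was called without replicate 2 of the cocultures (log2 2.55, adjusted p = 0.013), and without replicate 3 the values were 1.57 and 0.122. *Trib3*, a pseudokinase gene induced by ATF4 and CHOP, had the same order of cocultures, with 28.3, 34.7, 30.8 and 33.03 CPM alone and 40.2, 12.9, 142 and 116 CPM in cocultures (log2 1.29 ± 0.63, adjusted p = 0.174).

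*Ppp1r15a* encodes GADD34, which restores translation by reversing the action of PERK. It had 10.8, 20.2, 19.2 and 18.9 CPM alone and 27.8, 16.02, 0.42 and 82.05 CPM in cocultures, a range from below to above all libraries of MKs cultured alone (log2 0.86, adjusted p = 0.587). Without replicate 3 it was called higher (log2 1.23, adjusted p = 0.038), and without replicate 4 its log2 fold change was -0.20. *Asns*, which makes asparagine, had 227, 303, 254 and 216 CPM alone and 261, 167, 391 and 321 CPM in cocultures (log2 0.19). *Chac1*, which degrades glutathione, had 10.6 to 14.3 CPM alone and 19.1, 5.86, 4.60 and 48.2 CPM in cocultures (log2 0.60, adjusted p = 0.593). *Ddit3*, *Trib3* and *Asns* shared the order of cocultures, highest in replicate 3, then 4, 1 and 2.

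Within the cocultures, the folding genes and the ATF4 group did not rank the libraries alike. Among replicates 1, 2 and 4, replicate 2 was the highest for 13 of the 15 folding genes and the lowest for 6 of the 6 genes of the ATF4 group, and replicate 4 was the highest for 6 of 6. These counts describe 3 libraries and were not tested, and such ranks were not counted over all genes. MSC markers summed to 4092, 4880 and 3736 CPM in replicates 1, 2 and 4, and their part in these ranks was not tested. The median coefficient of variation of the 38 genes was 14.04% in MKs cultured alone, 36.3% in cocultures and 18.9% in cocultures without replicate 3.

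Per kilobase of exon, the highest levels in MKs cultured alone after *Serp1* were those of *Pdia3* (346 CPM per kb), *Hspa5* (242), *Canx* (207) and *P4hb* (147), and the lowest were those of *Ern1* (2.37), *Hyou1* (2.70) and *Atf6* (3.10). In cocultures *Pdia3* led with 471 CPM per kb, followed by *Hspa5* with 328 and *Canx* with 239.

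The other genes of these pathways were counted from lists written by hand. Of 137 genes tested, 26 were called higher and 4 lower (background 13.2% and 7.31%), with a median log2 fold change of 0.29. Of 35 further folding and redox genes tested, 12 rose and 1 fell (median 0.47). The 3 largest rises among called genes of at least 10 CPM included chaperones of collagen. *Serpinh1*, which encodes the collagen chaperone HSP47, had 502, 695, 211 and 405 CPM in cocultures and 0, 2, 0 and 0 counts in MKs cultured alone. *Fkbp10*, a collagen prolyl isomerase, had 164, 251, 219 and 191 CPM in cocultures and 0, 3, 4 and 1 counts alone. *Fkbp7*, another ER prolyl isomerase, averaged 1.45 CPM alone and had 46.2, 55.5, 0.31 and 31.6 CPM in cocultures (adjusted p = 0.024). Replicate 3 was thus below every library of MKs cultured alone, and with the replicate number as a block the gene was not called (adjusted p = 0.18). All 3 were low in MKs cultured alone, as were the MSC markers, and the part of the MSC marker difference in them was not tested. *Tmx4*, a membrane thioredoxin-type isomerase, fell from 402 ± 87.7 to 73.8 ± 40.1 CPM (SD, n = 4 each, log2 -2.44, adjusted p = 0.011).

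Of 24 further degradation genes tested, 1 rose and 1 fell (median -0.06, background 13.2% and 7.31% of all genes tested). These were the ubiquitin-conjugating enzyme gene *Ube2g2* (log2 1.44, adjusted p = 0.025), which was not called without replicate 3 of the cocultures, and *Ngly1*, which encodes the enzyme that removes sugar chains from misfolded proteins (-1.62, adjusted p = 0.018). The integrated stress response joins PERK to other kinases that favor ATF4. Of 34 further genes of this response tested, 8 rose and 2 fell (median 0.44, background 13.2% and 7.31%). Among called genes of at least 10 CPM, the largest rises were those of the stress regulator *Nupr1* (log2 2.45), the transcription factor gene *Cebpb* (2.38) and *Phgdh*, the first enzyme of serine synthesis (1.89), with adjusted p values of 0.007, 0.015 and 0.003. *Cebpb* had 94.4, 86.9, 447 and 180 CPM in cocultures, and without replicate 3 its log2 fold change was 1.61, against 2.18 for *Nupr1* and 1.66 for *Phgdh*. The falls were those of the cystine transporter gene *Slc7a11*, from 680 ± 160 to 151 ± 49.6 CPM (SD, n = 4 each, adjusted p = 0.001), and of *Ppp1r15b* (log2 -1.27, adjusted p = 0.045), the constitutive counterpart of *Ppp1r15a*, which was not called without replicate 3. Genes of the list thus moved in both directions.

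Of 44 further translocation and COPII genes tested, 5 rose and 0 fell (median 0.28, background 13.2% and 7.31% of all genes tested). The 3 with the largest rises at 10 CPM or more were *Creb3l1*, a transcription factor gene of secretory cells that make collagen (log2 2.82, adjusted p = 0.008, and 0.052 with the block), *Dad1*, a subunit of the sugar transferase at the channel (1.31, adjusted p = 0.027), and the cargo receptor gene *Mcfd2* (1.09, adjusted p = 0.004). *Dad1* had a log2 fold change of 0.87 without replicate 3 and was then not called.

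**Figure D5:**
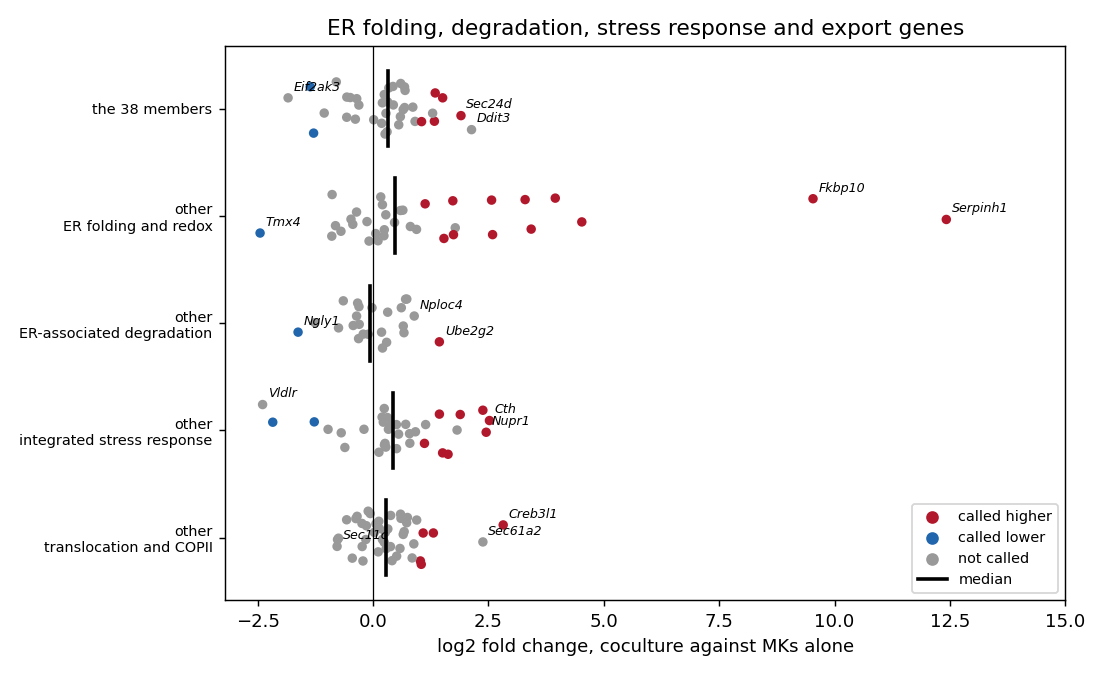
Log2 fold change of cocultures against MKs cultured alone (x axis) for the 38 members and for each tested gene of the 4 further lists (points, colored where called), with a black bar at each median and height used only to separate points. The medians of the further lists are 0.47, -0.06, 0.44 and 0.28 from top to bottom, and the far points *Serpinh1* and *Fkbp10* are fitted values against a group with almost no counts, which are no measure of size.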

How the data were processed

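RNA of murine MKs cultured alone or with MSCs (4 libraries each) was made into SMART-Seq HT low-input libraries. The authors filtered reads with fastp, used kallisto with the mm10 transcriptome to quantify them, and deposited whole-number counts per gene, without normalization. How transcripts were summed and rounded, and whether strand was used, is not given in the sources used here, so the 13 members whose exons overlap another gene are uncertain to that extent. The authors fitted DESeq2 with a batch that is not named. No gene in the table totals fewer than 11 counts.

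Counts were tested with edgeR 4.0.16 in R 4.3.3 (filterByExpr, TMM factors, robust quasi-likelihood F test), with all 8 libraries and no covariate. A gene was called at a change of at least 2-fold, an adjusted p of at most 0.05 (Benjamini-Hochberg over 11722 genes) and a group mean that reached 1 CPM in either group. SEs were the log2 fold change divided by the square root of F. Alternatives were DESeq2 1.42.0, other scalings, no filter, the replicate number as a block, and each library left out. On simulated data with 200 of 11377 genes changed 8-fold between these groups, edgeR called 196 of them and 6 others, and DESeq2 called 198 and 8 others. The dispersion for this was taken without replicate 3 of the cocultures.

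All 38 members were accounted for, with called members and those of the sensor and ATF4 groups in full. From each further pathway list, the 3 called genes with the largest rises and falls were named if they reached 10 CPM. The members and lists were chosen with earlier results of these data known. Gene positions came from RefSeq and exon lengths from GENCODE vM21 (GRCm38). Exon length was that of all annotated exons of a gene merged. It can exceed the length of the transcripts that were counted, so levels per kilobase are approximate. Promoter windows came from RefSeq (GRCm38.p6), where they were found for 34 of the 38 members. The promoter sequence of 1 member is not reported here. The ERSE-II motif was added after the other motifs had been counted. Molecules were not tagged, so the floor of 3 counts reflects counting error alone.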

Additional observations from a re-analysis of the deposited data

Results flagged for a closer look

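Within each group, the highest and the lowest library were compared with the other 3 on log2(CPM + 1) for all 38 genes, and 8 of 76 comparisons had a library whose gap to the rest exceeded Dixon's 95% critical value. Chance flags about 1 in 20, or 3.8 of 76. Of the 8, 5 were replicate 3 of the cocultures, in which *Hspa5* was 9.51 (10.6 to 10.7 in the other cocultures), *Dnajc3* 3.002 (6.91 to 7.41), *Edem1* 6.75 (7.97 to 8.14), *Syvn1* 1.90 (4.66 to 5.06) and *Eif2ak3* 0.50 (4.08 to 4.23). *Pdia6* was 8.61 in replicate 2 of the cocultures, above 8.001 to 8.10 in the others. In MKs cultured alone, replicate 1 was low for *Ddit3* at 3.64 (4.38 to 4.51) and for *Ppp1r15a* at 3.56 (4.31 to 4.41). Each of the 5 low values of replicate 3 stood in the library with the fewest detected genes, and the part of this in them was not tested.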

How the results depend on the processing

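The 4 COPII genes and *Serp1* were called with all other scalings, with no filter, in DESeq2 and without replicate 3 of the cocultures. The number of ER genes called lower was 1 with library size only and 1 with scaling to MK and platelet markers, since *Herpud1* then had adjusted p values of 0.080 and 0.055, and the cause was not tested. With libraries left out in turn, 4 to 6 genes were called higher and 1 to 3 lower, the median log2 fold change ran from 0.27 to 0.48, and 15 to 27 further pathway genes were called higher and 2 to 6 lower. The lowest of these counts, 15 and 16, came without replicates 1 and 4 of MKs cultured alone. Directions turned for *Sec61b* (-0.0023 with no filter, -0.089 to 0.16 with libraries left out), *Dnajc3* (-0.55 to 0.070), *Asns* (-0.023 to 0.42), *Ppp1r15a* (-0.20 to 1.23) and *Chac1* (-0.34 to 0.93). *Trib3* was called without replicate 2 of the cocultures (log2 1.69, adjusted p = 0.031). *Pdia6* reached 2-fold with scaling to markers (1.001), which moved the median of all genes from 0.03 to 0.11, and without replicate 4 of the cocultures (1.017).

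Deviations of same-numbered libraries correlated across genes with r of 0.30, 0.016, 0.12 and 0.016, against -0.22 to 0.086 for libraries of different numbers. Not every library correlated best with its own number, so the numbers were not taken to pair the samples. With the replicate block, 5 ER genes were called higher and 2 lower (*Dnajb9* in place of *Herpud1*), with a median of 0.21, against -0.14 over all genes, and backgrounds of 9.35% and 4.89%. *Chac1* was then -0.020, and 21 further pathway genes were called higher and 3 lower. In replicate 3 of the cocultures *Eif2ak3* and *Ppp1r15a* had 0.42 CPM, close to the 0.31 CPM of 3 counts, so their values there carry a large counting error.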
